A study of Rattus norvegicus with 6 samples.

Results

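The genes described here are those of the urea cycle and of ammonia handling in the liver, in rats fed normal or high protein on 3 dietary backgrounds. They were chosen by symbol: Cps1, Otc, Ass1, Asl, Arg1 and Nags of the cycle, and Gls2, Glul, Rhbg and Oat of ammonia and ornithine handling. A gene counted as measured where the platform annotation gave a probe set that symbol and no other, which held for 9 of the 10 genes, with 1 probe set each, of 14506 named genes in all. Glul, glutamine synthetase, was not analysed here because no probe set was listed under its symbol alone. All 9 measured genes passed the filter on low values, a mean above log2 5.14 over the arrays.

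The animals were adult male Wistar rats, 30 in all, and each array held a pool of liver RNA from the 5 rats of 1 diet. NP was normal protein with low fat, NP-HS normal protein with high sucrose and low fat, and NP-HS-HF normal protein with high sucrose and high fat. HP, HP-HS and HP-HS-HF were the high protein diets on the same 3 backgrounds. Every rat had first eaten the NP diet for 10 days, then its own diet for 5 weeks, and was killed 2 h after a fixed meal of 87.6 kJ, in the fed state. The animals are taken as rats, as the organism field and protocols have it, although the source labels say mice. Each diet had 1 array, so the spread between animals of a diet was not measured and the number of arrays limits the precision. The comparisons ask how protein intake bears on the liver under sucrose and fat.

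Ammonia freed from amino acids is toxic, and the liver turns it into urea. In mitochondria carbamoyl phosphate synthetase (Cps1), switched on by the N-acetylglutamate that Nags makes, joins ammonia to bicarbonate, and ornithine transcarbamylase (Otc) passes the product to ornithine to give citrulline. In the cytosol argininosuccinate synthetase (Ass1) and lyase (Asl) add the nitrogen of aspartate and release arginine and fumarate, and arginase (Arg1) splits arginine into urea and ornithine. Hepatocytes near the portal vein run the cycle and free ammonia from glutamine with the liver glutaminase Gls2. Those around the central vein take up ammonium that escaped, for which Rhbg is a channel, make glutamine from it, and hold much of the ornithine aminotransferase Oat, which links ornithine to glutamate and proline. Activity of the urea cycle enzymes in rat liver is known to follow protein intake.

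Promoter sequence is shown for 4 genes, Oat and Nags with a GC box close to the start and Cps1 and Otc without one, so that upstream sequence can be read beside the protein differences that follow. RefSeq windows (build GRCr8) were matched by symbol for 8 of the 9 measured genes; Arg1 was not matched. The 250 bases before the annotated start were searched on both strands for the GC box GGGCGG, the letters that the Sp family of factors is known to bind, and for 4 other motifs. The windows printed are Oat at chr1:196797755-196798004 on the minus strand, Nags at chr10:87598266-87598515 on the plus strand, Cps1 at chr9:76063613-76063862 on the plus strand and Otc at chrX:15202474-15202723 on the minus strand. These 4 lie outside the annotated span of their gene, whereas windows of Asl, Ass1, Gls2 and Rhbg reach into it and are not printed. Sequences run 5′ to 3′ along the gene, and capitals mark the GC boxes.
Oat: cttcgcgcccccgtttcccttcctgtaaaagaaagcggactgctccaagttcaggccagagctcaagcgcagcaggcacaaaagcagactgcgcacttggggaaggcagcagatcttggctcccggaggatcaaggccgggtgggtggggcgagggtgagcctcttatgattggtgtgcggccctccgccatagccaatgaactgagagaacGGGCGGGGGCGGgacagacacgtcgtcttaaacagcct
Nags: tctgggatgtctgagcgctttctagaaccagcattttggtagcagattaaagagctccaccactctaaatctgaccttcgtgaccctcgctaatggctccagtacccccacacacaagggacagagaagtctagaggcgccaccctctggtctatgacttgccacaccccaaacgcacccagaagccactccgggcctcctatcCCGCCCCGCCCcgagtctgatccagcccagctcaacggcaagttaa
Cps1: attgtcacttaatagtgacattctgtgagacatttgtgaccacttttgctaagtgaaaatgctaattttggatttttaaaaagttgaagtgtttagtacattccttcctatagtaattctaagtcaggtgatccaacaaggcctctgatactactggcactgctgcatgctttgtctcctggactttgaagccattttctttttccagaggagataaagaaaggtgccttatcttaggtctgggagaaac
Otc: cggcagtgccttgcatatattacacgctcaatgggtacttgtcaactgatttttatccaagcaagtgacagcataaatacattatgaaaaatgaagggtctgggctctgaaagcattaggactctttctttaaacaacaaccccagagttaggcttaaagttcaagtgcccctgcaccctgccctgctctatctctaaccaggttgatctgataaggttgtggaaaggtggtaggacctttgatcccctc

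A GC box lay in 30.5% of the 33469 windows of all genes. It was found in the windows of Oat, Rhbg, Gls2 (1 of its 2 windows), Nags and Asl and in both windows of Glul, and not in those of Cps1, Otc and Ass1. The GC boxes began 38 and 32 bases before the start of Oat, 47 before that of Rhbg, 47 and 39 before that of Gls2, and 46 and 41 before that of Nags, whereas the one of Asl lay at 249, the edge of its window. The windows of Oat and Nags were 60.8% and 56.4% G and C, and those of Cps1 and Otc 38.0% and 44.4%, beside a median of 51.2% over all windows. The cyclic AMP response half-site TGACG was in the Gls2 window (18.2% of all windows). The TCF core CTTTGA was in the Cps1 and Otc windows and in 1 of the 2 windows of Glul (13.9% of all), and the TATA box TATAAA was in that of Ass1 (12.9%). The glucocorticoid half-site AGAACA was in none of these 11 windows (17.5% of all). A match describes letters in a window and is not a binding site.

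High against normal protein. Asl, Oat, Rhbg and Gls2 stood higher in the livers of rats on high protein, by 1.21-fold to 1.40-fold in the fit, while Cps1 and Arg1, at the entry and the exit of the cycle, differed by no more than 1.04-fold. Otc had a fitted difference below 0. With high protein 9 of 9 genes were higher in the low fat background, 8 with HS and 6 with HS-HF (5 there after quantile normalization, which put Ass1 at -0.0295). Among these 6, Cps1 was higher by only 0.0033 with HS-HF. The share of all probe sets that were higher was not counted for single backgrounds. Their median differences were -0.002 in low fat, -0.005 with HS and 0.005 with HS-HF. Fitted differences were above 0 for 8 genes, where 49.4% of all probe sets were. The fit was limma over 20450 probe sets on all 6 arrays, with terms for protein and background, and p-values were adjusted by Benjamini-Hochberg. None of the 9 genes passed the adjusted threshold of 0.05 for protein (lowest adjusted p = 0.118, limma, for Asl), as 0.044% of all probe sets tested did, so directions below are values and not calls.

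At an unadjusted p under 0.05 in limma 4 of the 9 genes were higher (Asl, Oat, Rhbg, Gls2), where 4.68% of all probe sets tested were, and 0 were lower, where 4.03% were. All 3 high protein arrays lay above all 3 normal protein arrays for 4 genes (Asl, Oat, Gls2, Ass1; 3 after quantile normalization, without Ass1), against 7.35% of all probe sets. The difference was above 0 in each of the 3 backgrounds for 6 genes (these 4, Rhbg and Cps1; 5 after quantile normalization, without Ass1), against 14.6%. The median fitted difference of the 9 genes was 0.13 on the log2 scale, beside -0.001 for all probe sets tested. The genes share the 6 arrays and are not independent of each other, and in a pool of whole liver fewer cells of a type cannot be told apart from less RNA per cell.

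**Figure D1:**
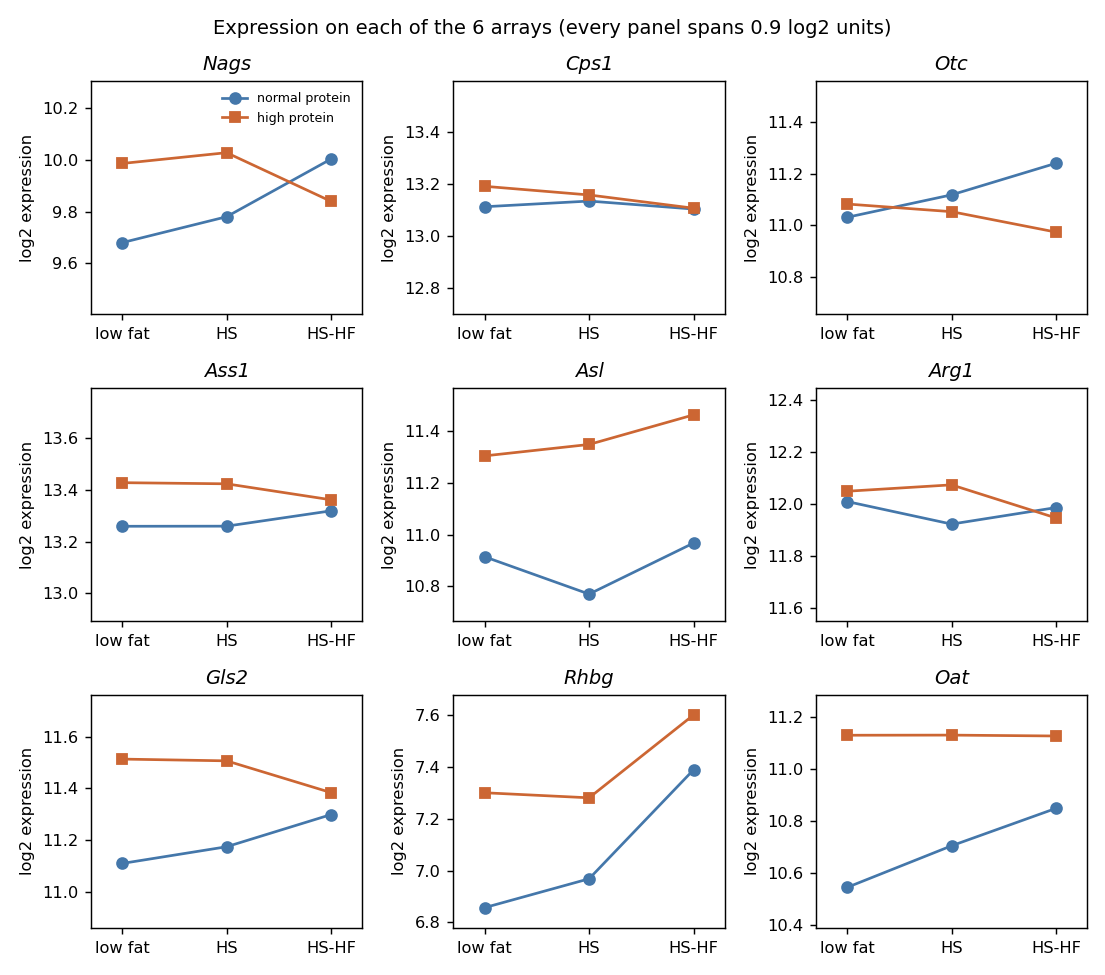
Log2 expression of the 9 measured genes on each array, with the 3 backgrounds on the horizontal axis, circles for normal and squares for high protein, and lines joining the arrays of a protein level; every panel spans the same height. The square lies above the circle on all backgrounds for Ass1 (on HS-HF not after quantile normalization), Asl, Gls2, Rhbg, Oat and, by less than 0.01 on HS-HF, Cps1, and the 2 lines cross for Nags, Otc and Arg1.

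The start of the cycle. Nags, which makes the activator of Cps1 (probe set 10738522), was at log2 9.68 on NP, 9.78 on NP-HS and 10.00 on NP-HS-HF, and at 9.99 on HP, 10.03 on HP-HS and 9.84 on HP-HS-HF. NP and NP-HS were the low arrays, and NP-HS-HF lay among the high protein ones. High minus normal protein was thus 0.31 in low fat, 0.25 with HS and -0.16 with HS-HF, with a fitted difference of 0.13 ± 0.104 SE (3 pairs of arrays, adjusted p = 0.805, limma). That value was 0.042 without NP or without HP and 0.28 without NP-HS-HF or without HP-HS-HF.

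Cps1, the enzyme that commits ammonia to the cycle (probe set 10924088), read 13.11 on NP, 13.14 on NP-HS, 13.10 on NP-HS-HF, 13.19 on HP, 13.16 on HP-HS and 13.11 on HP-HS-HF. All 6 arrays lay within 0.088, and the protein levels overlapped. The fitted difference was 0.035 ± 0.065 SE with a 95% interval from -0.12 to 0.19 (adjusted p = 0.936, limma). A change of 1.5-fold lies outside that interval, which does not cover the spread between rats or pools of a diet. Without NP or without HP the difference was 0.013. The Cps1 and Ass1 signals lie close to the highest value in the table, 13.92, and whether the array compresses differences at that level was not tested.

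Otc, which forms citrulline (probe set 10936865), was at 11.03 on NP, 11.12 on NP-HS, 11.24 on NP-HS-HF, 11.08 on HP, 11.05 on HP-HS and 10.97 on HP-HS-HF. It was lowest on HP-HS-HF and highest on NP-HS-HF, so both ends of its range lie in the same background. High minus normal protein was 0.051, -0.065 and -0.27 on the 3 backgrounds, and the fitted difference was -0.093 ± 0.082 SE (adjusted p = 0.824, limma). It was -0.0068 without NP-HS-HF or without HP-HS-HF and -0.17 without NP or without HP.

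The cytosolic enzymes. Asl, argininosuccinate lyase (probe set 10757962), had values of 10.91 on NP, 10.77 on NP-HS and 10.97 on NP-HS-HF, against 11.30 on HP, 11.35 on HP-HS and 11.46 on HP-HS-HF. The lowest high protein array lay 0.34 above the highest normal protein array. The means were 10.88 ± 0.10 and 11.37 ± 0.08 (SD over 3 arrays of different backgrounds), a fitted difference of 0.49 ± 0.070 SE or 1.40-fold (95% interval 0.32 to 0.66). Among 20450 probe sets Asl ranked 59 by p for protein. Its difference was 0.39 in low fat, 0.58 with HS and 0.49 with HS-HF, and it alone of the 9 genes did not have its smallest difference in the last background.

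Ass1, the enzyme just before Asl (probe set 10835355), was at 13.26, 13.26 and 13.32 on NP, NP-HS and NP-HS-HF and at 13.43, 13.42 and 13.36 on HP, HP-HS and HP-HS-HF. The protein levels did not overlap, with a gap of 0.043 between NP-HS-HF and HP-HS-HF, but after quantile normalization HP-HS-HF minus NP-HS-HF was -0.0295. The fitted difference was 0.12 ± 0.067 SE, with a 95% interval from -0.038 to 0.29 (adjusted p = 0.696, limma).

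Arg1, liver arginase (probe set 10702214), read 12.01 on NP, 11.92 on NP-HS, 11.99 on NP-HS-HF, 12.05 on HP, 12.07 on HP-HS and 11.95 on HP-HS-HF. The 6 arrays lay within 0.15 and the protein levels overlapped. The fitted difference was 0.050 ± 0.071 SE (95% interval -0.12 to 0.22, adjusted p = 0.909, limma), and it was at -0.00035 without either array of the high sucrose background, on which Arg1 differed by 0.15.

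Ammonia release, uptake and ornithine. Gls2, the glutaminase that feeds ammonia to the cycle (probe set 10893008), was at 11.11 on NP, 11.17 on NP-HS and 11.30 on NP-HS-HF, and at 11.51, 11.51 and 11.38 on HP, HP-HS and HP-HS-HF. The protein levels did not overlap, and came closest with HS-HF, where they differed by 0.085 against 0.40 in low fat and 0.33 with HS. The fitted difference was 0.27 ± 0.083 SE, or 1.21-fold (adjusted p = 0.428, limma).

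Rhbg, the ammonium channel (probe set 10824268), was at 6.86 on NP, 6.97 on NP-HS and 7.39 on NP-HS-HF, and at 7.30 on HP, 7.28 on HP-HS and 7.60 on HP-HS-HF. Both HS-HF arrays stood above the other arrays of their protein level, and NP-HS-HF lay above HP and HP-HS, so the levels overlapped. Within a background high protein was higher by 0.44, 0.31 and 0.21, with a fitted difference of 0.32 ± 0.074 SE, or 1.25-fold (adjusted p = 0.285, limma).

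Oat, ornithine aminotransferase (probe set 10726280), was at 10.54 on NP, 10.70 on NP-HS and 10.85 on NP-HS-HF, and at 11.13 on each of HP, HP-HS and HP-HS-HF. The high protein arrays lay within 0.0034 of each other, whereas the normal protein arrays spanned 0.31. The difference was 0.59 on low fat, where Oat only just reached 1.5-fold (0.738% of all probe sets reached it upward there). No other gene of the 9 reached 1.5-fold upward in any background. After quantile normalization or centring the low fat difference of Oat was 0.574 or 0.575, short of 1.5-fold. Its difference was 0.43 with HS and 0.28 with HS-HF (0.87% and 0.836% of all probe sets reached 1.5-fold upward there). None of the 9 was 1.5-fold lower in a background, as 1.59% of all probe sets were. The fitted difference was 0.43 ± 0.081 SE, or 1.35-fold (95% interval 0.24 to 0.63, adjusted p = 0.185, limma). Of the genes whose windows are printed above, Oat and Nags, with GC boxes, had fitted differences of 0.43 and 0.13. Cps1 and Otc, without, had 0.035 and -0.093. Among windows not printed, those of Asl, Rhbg and Gls2 hold a GC box, that of Asl only at the window's edge. These genes stood at 0.49, 0.32 and 0.27. Ass1, whose window lies inside its annotated gene span and holds no GC box, stood at 0.12, close to Nags with its boxes. Whether GC boxes go with the protein differences was not tested.

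**Figure D2:**
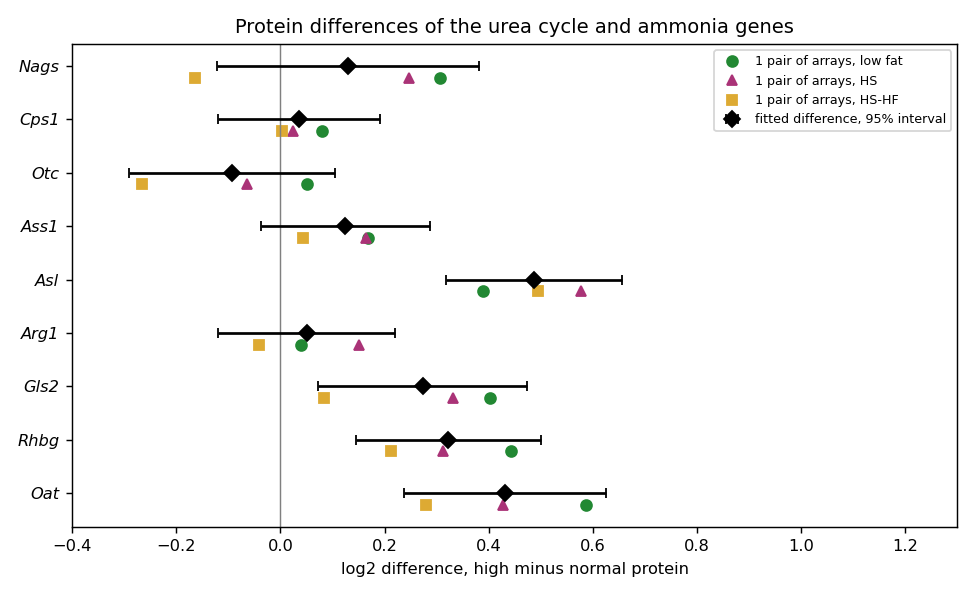
High minus normal protein differences of the 9 genes on the log2 scale: black diamonds give the limma estimate over 3 pairs of arrays with its 95% interval, coloured marks give the single pairs on low fat, HS and HS-HF. The intervals of Asl, Oat, Rhbg and Gls2 lie above 0, those of the other 5 genes include 0, and the HS-HF mark is the leftmost for 8 genes, all but Asl.

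The protein difference by background. The difference was smallest, with its sign, with HS-HF for 8 of the 9 genes, where 32.8% of all probe sets tested had this order; this pattern was chosen after the values were seen. The median difference of the 9 genes was 0.31 in low fat, 0.25 with HS and 0.042 with HS-HF, beside -0.002, -0.005 and 0.005 for all probe sets tested. The last value rests on the NP-HS-HF and HP-HS-HF arrays, 1 each, and with 1 array a diet no degrees of freedom remain for a protein by background term, so the narrowing was not tested. NP-HS-HF lay above NP for 7 genes (49.1% of all probe sets), whereas HP-HS-HF lay above HP for 2, Asl and Rhbg (50.1% of all).

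With normal protein, 6 genes (Otc, Ass1, Nags, Gls2, Rhbg, Oat) had values in the order NP, NP-HS, NP-HS-HF from low to high, where 18% of all probe sets did; the step from NP to NP-HS was under 0.001 for Ass1, and below 0 after quantile normalization or centring, which left 5 genes. With high protein 1 gene, Asl, had the matching order, against 18.1% of all probe sets. From NP to NP-HS-HF Rhbg was higher by 0.53, Nags by 0.32, Oat by 0.31, Otc by 0.21 and Gls2 by 0.19. From HP to HP-HS-HF the same genes differed by 0.30, -0.15, -0.0029, -0.11 and -0.13.

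**Figure D3:**
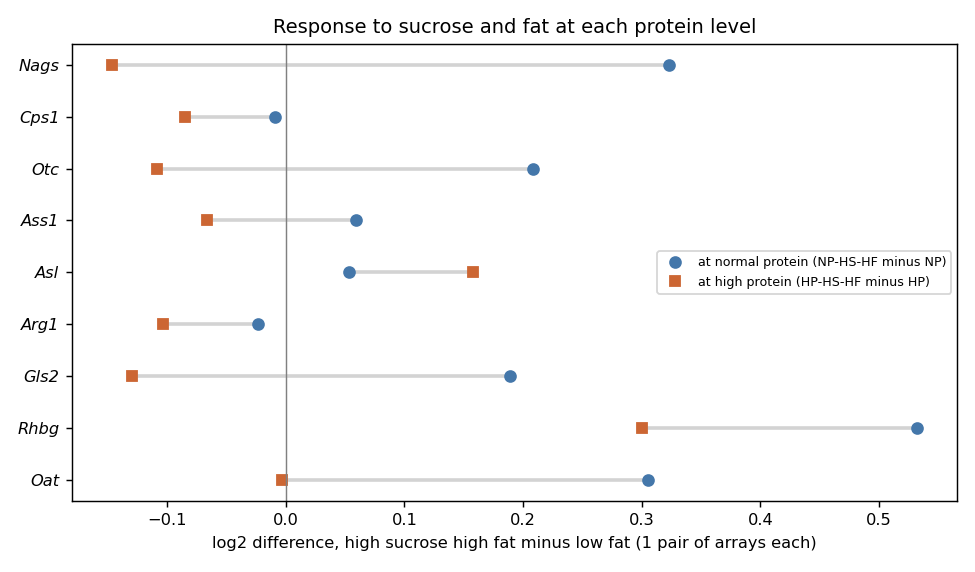
Difference between high sucrose high fat and low fat diets, on the log2 scale, at normal protein (circles) and at high protein (squares), each from 1 pair of arrays. The circles of Nags, Otc, Gls2 and Ass1 lie right of 0 and their squares left of it. Both marks of Rhbg and of Asl lie right of 0, and Oat has a circle at 0.31 and a square next to 0.

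Sucrose and fat at equal protein. Rhbg alone of the 9 genes had an interval apart from 0 for a background. It was higher on high sucrose with high fat than on high sucrose by 0.37 ± 0.090 SE, or 1.29-fold (2 pairs of arrays, 0.42 at normal and 0.32 at high protein, adjusted p = 0.81, limma). Against low fat it was higher by 0.42 ± 0.090 SE (0.53 and 0.30, adjusted p = 0.8, limma). None of the 9 genes passed the adjusted threshold for sucrose, fat, or both, and 0% of all probe sets did. At an unadjusted p under 0.05 the only one was Rhbg, higher for fat (2.5% of all probe sets) and for sucrose and fat (2.57%). None of the 9 was lower for these (2.45% and 2.61% of all), and for sucrose none was past that threshold, as 1.47% of all probe sets were upward and 1.55% downward. High sucrose against low fat gave fitted differences from -0.050 (Asl) to 0.081 (Oat). None of the 9 differed 1.5-fold with sucrose, fat or both at either protein level, where 3.79% of all probe sets did so in at least 1 of these differences.

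Other genes of nitrogen handling. In 8 lists of 75 further genes, 68 had a probe set under their symbol and 64 passed the filter. None of the 64 passed the adjusted threshold in any of the 4 effects (lowest adjusted p for protein 0.064, limma, for Slc1a2). At an unadjusted p under 0.05 15 were higher and 2 lower with high protein, beside 4.68% and 4.03% of all probe sets. These lists were written with earlier results of the same data known, and several of the genes were in view then.

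Among carriers of urea cycle intermediates and the bicarbonate supply, 4 of 8 were higher and 1 lower at that threshold, with a median of 0.15. Slc25a22, a mitochondrial glutamate carrier, was at 9.98, 9.75 and 10.01 on NP, NP-HS and NP-HS-HF and at 10.39, 10.35 and 10.44 on HP, HP-HS and HP-HS-HF. The protein levels did not overlap (0.48 ± 0.072 SE, adjusted p = 0.124, limma). Car5a, the mitochondrial carbonic anhydrase that supplies bicarbonate to Cps1, was at 7.79, 7.67 and 7.91 on the normal protein arrays and 8.16, 8.12 and 8.28 on the high protein ones in that order. It did not overlap either (0.40 ± 0.065 SE, adjusted p = 0.149, limma), while its relative Car5b lay at -0.39 ± 0.122 SE, with -0.76 on high sucrose with high fat. The ornithine carrier Slc25a15 and the arginine transporter Slc7a2, named after their values were seen, had fitted differences of 0.26 and 0.22.

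The likeness of single genes to Asl, the measured member with the largest moderated t for protein, was taken as the root mean square difference of the 6 values after centring each gene on its own mean. Over 11420 named genes the 5 closest were Slc25a22 (0.044), Car5a (0.055), Kbtbd8 (0.057), Bmt2 (0.061) and Adora2a (0.068), where a flat gene would be at 0.255 and the median gene was at 0.268. The first 2 are in the carrier and bicarbonate list, but that list was written with earlier results of these same data known.

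Of 12 ammonia and nitrogen donors 5 were higher at the unadjusted threshold (Got1, Gpt, Gldc, Sds, Hal) and 0 lower, with a median of 0.10. The cytosolic aspartate aminotransferase Got1 stood at 0.69 ± 0.087 SE, with 0.64, 0.89 and 0.54 on the 3 backgrounds. The glycine decarboxylase Gldc stood at 0.59 ± 0.081 SE and the serine dehydratase Sds at 0.50 ± 0.090 SE. Glutamate dehydrogenase, Glud1, was at -0.0023 ± 0.065 SE, and the mitochondrial aminotransferase Got2 at -0.11 ± 0.070 SE; both were named after their values were seen.

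In glutamine and glutamate transport 2 of 9 were higher (Slc1a2, Slc1a4) and 1 lower (Slc38a7), with a median of 0.087. Slc1a2, a glutamate transporter of pericentral hepatocytes, was at 9.49 on NP, 9.57 on NP-HS and 10.14 on NP-HS-HF, and at 10.59, 10.59 and 10.82 on HP, HP-HS and HP-HS-HF. The HS-HF array was the highest at each protein level, as it was for Rhbg, Asl, Slc25a22, Car5a, Gldc and Tbx3 among others. The share of all probe sets with this order was not counted. Slc1a4, a neutral amino acid transporter, was at 6.61, 6.69 and 6.63 with normal protein and 7.76, 7.75 and 9.01 with high protein, so its HP-HS-HF array stood apart. The difference of Slc1a4 was 2.38 on high sucrose with high fat and 1.53 ± 0.248 SE in the fit (adjusted p = 0.145, limma).

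The remaining lists held fewer such genes. Of 6 urea and ammonium channels 0 were past the unadjusted threshold, with a median of -0.035, and Aqp8 at -0.21 ± 0.117 SE and the urea transporter Slc14a1 at -0.14 ± 0.134 SE were the farthest from 0. Of 9 genes for other fates of arginine and ornithine 1 was, Odc1, the first enzyme of polyamine synthesis (0.16 ± 0.066 SE), and Agmat was at 0.094. Of 5 proline genes 1 was, the proline dehydrogenase Prodh (0.31 ± 0.089 SE), with Prodh2 at 0.13. Of 2 malate dehydrogenases 0 were (Mdh2 at -0.074 and Mdh1 at -0.0024). Of 13 regulators 2 were, Tbx3, a transcription factor of the pericentral zone (0.62 ± 0.094 SE), and the coactivator Ppargc1a (0.27 ± 0.081 SE), and the list's median was -0.020.

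**Figure D4:**
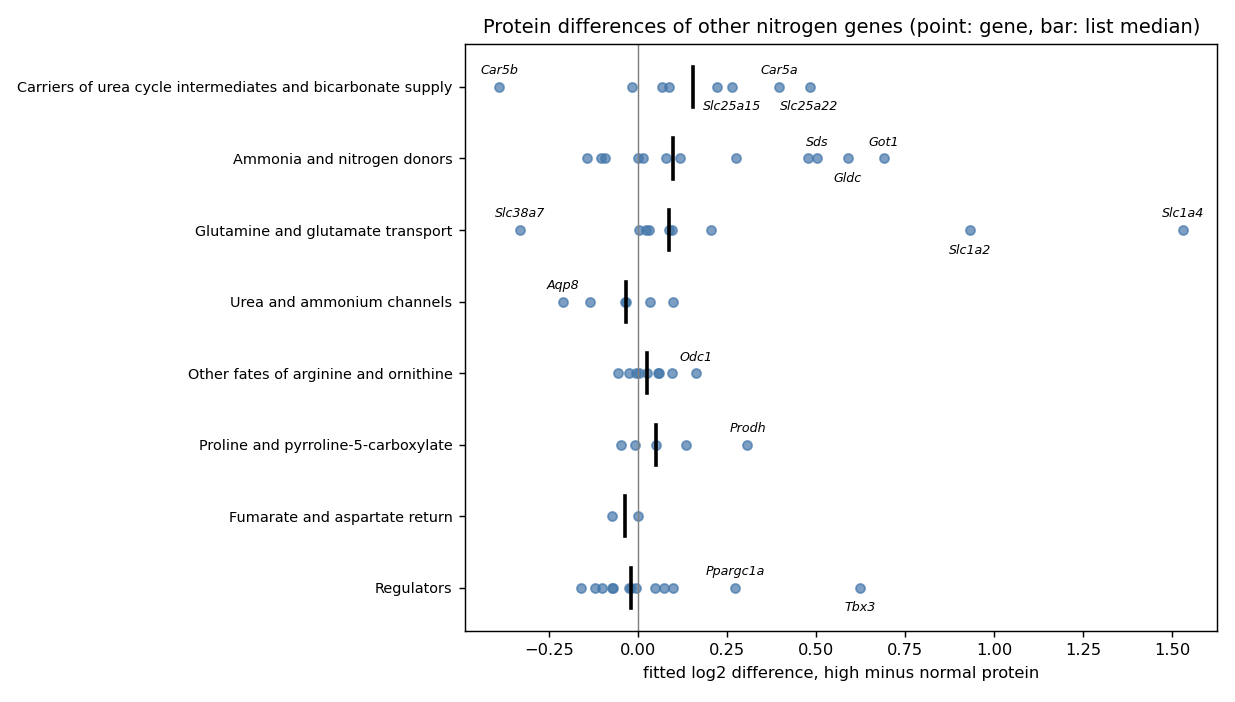
Fitted high minus normal protein differences, on the log2 scale, of 64 other genes in 8 lists, each point 1 gene and each bar the median of its list. The points of Slc1a4 and Slc1a2 lie farthest right at 1.53 and 0.93, and the medians lie between -0.038 and 0.15.

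Cell types in the pools. All 10 hepatocyte markers were above the filter, and their mean level lay between 12.97 and 13.02 on the normal protein and 12.98 and 13.01 on the high protein arrays. That level is near those of Cps1 and Ass1, and whether the array compresses differences there was not tested. None of the 10 macrophage markers passed the adjusted threshold for protein (lowest adjusted p = 0.287, limma, for Cd5l). All 10 had fitted differences above 0 and 8 were higher at an unadjusted p under 0.05, beside 49.4% and 4.68% of all probe sets, and their mean level was 8.18 to 8.32 with normal and 8.37 to 8.57 with high protein. The 4 measured bile duct markers were all above 0, at 5.90 to 6.08 and 6.10 to 6.20. Of 10 pericentral markers 8 were above 0 and 2 below (Lect2, and Lgr5, which read 5.20 to 5.38, close to the filter), with a median of 0.096. The 2 past that threshold, Tbx3 (0.62) and Slc1a2 (0.93), are also in the lists above and weigh most in the mean level. That mean level was 8.86 to 9.02 with normal and 9.07 to 9.22 with high protein, whereas Axin2 stood at 0.086 ± 0.065 SE. Of 10 periportal markers 3 were higher (Hal, Sds, Pck1) and 2 lower (Hsd17b13, Cyp2f4) at that threshold, with a mean level of 10.67 to 10.75 and 10.73 to 10.82. Hal and Sds were also counted among the ammonia and nitrogen donors above. The part of these cells and zones in the differences of the 9 genes was not tested. Endothelial, stellate, red cell, lymphocyte and neutrophil, kidney and intestine, and pancreas and adipose markers had 0 genes at that threshold, and Cd3e, Ms4a1, S100a8, S100a9, Umod, Slc12a1, Prss1 and Cpa1 lay at or below the filter.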

How the data were processed

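Liver RNA of 5 rats per diet was pooled by the authors at 1500 ng per rat, and each of the 6 pools was hybridised to 1 Affymetrix whole-transcript array, per the labels' protocols. The deposited values are on the log2 scale (2.40 to 13.92) and were summarised by RMA, per the submitters' processing notes; its version and settings and the genome build are not given in the labels or files used here. Pairwise Pearson correlations of the arrays were 0.9949 to 0.9964, their medians lay within 0.033, and 0 pairs were identical.

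Of 29214 probe sets, 15310 had 1 gene symbol in the platform annotation, 323 had several and were not named, and the rest are unnamed here. The 9 genes matched RefSeq by Entrez number. Probe sets with a mean above the 30th percentile were tested (20450, among them 11421 named genes). A linear model in limma 3.58.1 (R 4.3.3) had terms for protein and background, which leaves 2 residual degrees of freedom (eBayes prior 4.37 degrees of freedom, prior SD 0.094). The 2 residual degrees of freedom are those that a protein by background term would take. With no replicate pools, p-values rest on how differences vary between these arrays and on the prior spread taken from all probe sets tested. They do not cover the spread between rats or pools of a diet. The model was tested on simulated data. Alternatives changed the filter, the moderation, the scaling, the weights and the arrays used.

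All genes of the group are described. From each list the text names up to 2 genes with the largest protein differences, and those at 1.5-fold or more in a background. The members, lists and motifs were chosen with earlier results of these data known. Nutrient contents of the diets were not used, so more protein or fat cannot be told apart from less of another nutrient.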

Additional observations from a re-analysis of the deposited data

Results flagged for a closer look

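For 3 genes a difference went opposite ways in arrays that share no pool, by at least 0.1 on the log2 scale each way; every diet has 1 array and the difference between such differences was not tested. Nags differed with fat by 0.22 at normal and -0.19 at high protein (0.41 apart), and with sucrose and fat by 0.32 and -0.15 (0.47 apart). Its high minus normal protein difference was 0.31 in low fat and 0.25 with HS but -0.16 with HS-HF (0.47 and 0.41 apart). These are 4 readings of the same 6 values. Gls2 differed with fat by 0.12 at normal and -0.12 at high protein (0.25 apart), and with sucrose and fat by 0.19 and -0.13 (0.32 apart). Otc differed with sucrose and fat by 0.21 at normal and -0.11 at high protein (0.32 apart). Of all probe sets tested, 10.9% went opposite ways by that size for fat and 14.7% for sucrose and fat, and 13.7% and 9.88% for protein between low fat or high sucrose and high sucrose with high fat.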

How the results depend on the processing

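Of the 9 genes, 8 kept the direction of their protein difference under all 16 alternatives: Asl between 0.44 and 0.54, Oat between 0.35 and 0.51, Rhbg between 0.26 and 0.38, Gls2 between 0.21 and 0.37, Ass1 between 0.085 and 0.17, Nags between 0.042 and 0.28, Cps1 between 0.013 and 0.051, and Otc between -0.17 and -0.0068. Changes of filter or moderation cannot move these values. Leaving out 1 array of a background gives the same value as leaving out both. The 16 alternatives therefore hold fewer distinct estimates. Arg1, between -0.00035 and 0.0955, turned to -0.00035 without NP-HS, without HP-HS and without both arrays of the high sucrose background, which are the same estimate. Asl passed with trend and robust moderation (adjusted p = 0.0338, limma) and in no other alternative, where its adjusted p reached 0.672; the other 8 genes passed in none. After quantile normalization 5 genes in place of 6 were higher in every background and 3 in place of 4 did not overlap, and after it or after centring 5 in place of 6 had the order of the normal protein diets; the gene lost was Ass1 each time. The count of 8 with the smallest difference on high sucrose with high fat held the same genes under both (this count and the one on order were tried after seeing the data). Over all probe sets the protein count of 9 was 3 without a filter, 57 with trend and robust moderation, 17 with array weights and 0 with an ordinary t. It ranged from 0 (without NP, NP-HS, HP or HP-HS) to 48 (without NP-HS-HF or HP-HS-HF), and was 0, 0 and 48 without both arrays of the low fat, high sucrose, and high sucrose high fat background. Of the counts of 0, sucrose became 3 with the 4 arrays compared, and without 1 array ranged from 0 to 3 (1 without NP-HS, 3 without NP-HS-HF or HP-HS-HF). Fat ranged from 0 to 17 (without NP-HS-HF) and sucrose and fat from 0 to 12 (without NP-HS-HF; 1 without HP-HS-HF). At an unadjusted p under 0.05 limma gave 617 probe sets for sucrose, 1013 for fat and 1059 for both. The cause was not tested. Each gene has 1 probe set, so the mean over probe sets was not run. The fit compares the protein levels within each background, and the labels give no replicate numbers to pair by.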
